A study of Sus scrofa with 63 samples.

Results

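The genes described are 6 HOX genes (HOXA3, HOXA9, HOXB7, HOXD8, HOXD10 and HOXD12) and 3 genes of their DNA-binding cofactors (MEIS1, MEIS2 and PBX2), measured in pig skin after contact with sulfur mustard, an alkylating blister agent. They are 9 of the 6765 genes that the array's annotation names by a single symbol. A member is a gene with a probe set under that symbol, and of several probe sets the one brightest on average over the 63 arrays was taken; the 9 genes have 14 probe sets, and HOXA3, HOXA9, HOXD8 and HOXD10 have 1 each. The annotation names none of the other 33 HOX genes looked for, 30 of which RefSeq lists for the pig assembly Sscrofa11.1, so most of the HOX clusters was not analysed here. Skin was taken from female Yorkshire crossbred pigs at 1, 2, 4, 24, 48, 72, 168, 336 and 514 h. At each time there were 3 arrays of sites exposed to 400 µL of neat agent for 8 min, 1 array of a sham pig that was prepared but not exposed, and 3 arrays of unexposed control sites of the exposed pigs, which makes 27 exposed, 9 sham and 27 control arrays. All sites lay on the depilated ventral abdomen, and a template marked 4 sites per exposed pig, 2 of them exposed; which position each biopsy came from is not given in the sources used here. Ages are not given in the sources used here.

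HOX genes encode homeodomain transcription factors that lie in clusters and are switched on in their cluster order along the head to tail axis of the embryo. In adult skin, dermal fibroblasts keep a HOX expression pattern that depends on where on the body they come from. PBX and MEIS proteins belong to the TALE class of homeodomain proteins, bind DNA together with HOX proteins and raise their selectivity.

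Values are log2 signals. Array medians lay between 7.75 and 7.86, and 2 arrays of the same group differed with an SD of 0.231 to 0.583 over probe sets. The 3 pigs of a time gave both the exposed and the control arrays; whether equal replicate numbers mark the same pig is not stated, so p values measure the spread between arrays. Exposed sites differed widely from control sites in cell markers. Over the 9 times, 6 of the 7 keratinocyte genes measured fell and 1 rose. Of the 8 fibroblast genes 6 fell and 1 rose, and 9 of the 10 neutrophil and macrophage genes rose. In the same contrast 37% of all probe sets were called and 18.4% were called lower. The mean signal of the 12 skeletal muscle genes (the muscle score) ranged from 6.84 to 13.79 in exposed, from 7.00 to 13.14 in sham and from 7.07 to 13.76 in control arrays. On whole skin arrays, fewer cells of a type and less RNA per cell cannot be told apart. Histology in the labels scored no epidermal necrosis at exposed sites at 1, 2 and 4 h, a mean of 4 at 24 and 48 h and of 3.67 at 72 h. Dermal necrosis was scored 0 at 1 and 2 h, and had a mean of 1 at 4 h and of 4 at 24, 48 and 72 h. At 168, 336 and 514 h, 0, 1 and 3 of the 3 lesions scored were re-epithelialized.

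Averaged over the 9 times, 8 of the 9 genes were lower at exposed than at control sites and none was higher. HOXA9 had the largest difference, -1.80 ± 0.11 on the log2 scale (SE), a 3.49-fold lower signal (adjusted p = 3.68e-16, limma over all probe sets). HOXD12 (-0.73 ± 0.08) and MEIS1 (-0.63 ± 0.06) followed, then HOXA3 (-0.44 ± 0.05), MEIS2 (-0.35 ± 0.07), HOXB7 (-0.29 ± 0.04), HOXD8 (-0.28 ± 0.07) and HOXD10 (-0.22 ± 0.03), with adjusted p values of 2.28e-10 for MEIS1 to 0.00115 for HOXD8. PBX2 showed no difference past the threshold (0.00076 ± 0.05, 95% interval -0.11 to 0.11, adjusted p = 0.994). In this contrast 37% of the 23999 probe sets tested were called at an adjusted p below 0.05, and 18.4% were called lower. The median difference was -0.35 over the 9 genes and -0.0017 over all probe sets.

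HOXA9 was lower at sham than at control sites as well. Sham minus control averaged -1.74 ± 0.16 over the 9 times, a 3.34-fold lower signal (adjusted p = 2.09e-09, limma), and HOXA9 was the single member called in this contrast, in which 0.0208% of all probe sets, 5 in number, were called. For the other 8 genes the sham minus control difference ranged from -0.18 (HOXA3 and HOXD8) to 0.13 (PBX2), and 2 members, HOXA9 and HOXA3, had an unadjusted p below 0.05. Against sham sites, 6 of the 9 genes fell (HOXA3, HOXB7, HOXD10, HOXD12, MEIS1 and MEIS2), where 28.2% of all probe sets were called and 14.7% were called lower. HOXA9 did not pass the threshold there (-0.06 ± 0.16, 95% interval -0.37 to 0.25, adjusted p = 0.82). Exposed minus control and sham minus control share their control arrays.

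**Figure D1:**
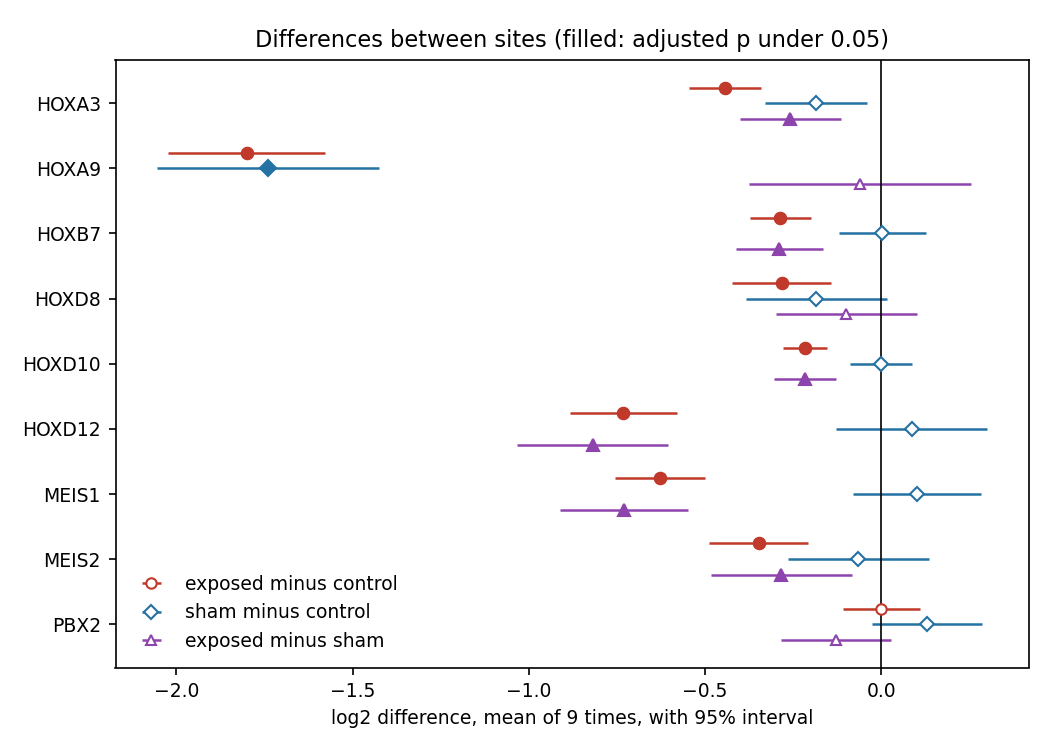
Log2 difference of each gene averaged over the 9 times (points) with its 95% interval (bars), for exposed minus control, sham minus control and exposed minus sham; filled points passed an adjusted p of 0.05. HOXA9 lies at -1.80 and -1.74 in the contrasts with control sites and at -0.06 between exposed and sham sites, while HOXD12 and MEIS1 lie below -0.6 in both contrasts of exposed sites and at 0.09 and 0.10 in sham minus control.

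HOXA9 is a posterior gene of the HOXA cluster, known for its part in limb patterning and in blood stem cells. At 1 h HOXA9 read 7.84, 8.06 and 7.76 at exposed sites, 8.50 at the sham site and 9.58, 9.12 and 9.90 at control sites. At 2 h HOXA9 read 8.88, 7.39 and 9.12 at exposed sites, 8.05 at the sham site and 10.33, 9.67 and 9.81 at control sites. At 4 h HOXA9 read 9.35, 8.99 and 9.17 at exposed sites, 8.66 at the sham site and 10.24, 9.91 and 10.07 at control sites. Already at 1 h, and at each of these times, every exposed array and the sham array lay below all 3 control arrays (values in each group are in the order of replicate numbers). At 24 h HOXA9 read 7.33, 6.81 and 7.06 at exposed sites, 7.89 at the sham site and 9.68, 9.05 and 9.70 at control sites. At 48 h HOXA9 read 7.88, 7.71 and 7.87 at exposed sites, 8.02 at the sham site and 10.02, 10.22 and 8.68 at control sites. At 72 h HOXA9 read 7.07, 7.74 and 6.87 at exposed sites, 7.73 at the sham site and 9.40, 10.31 and 9.56 at control sites. The exposed and sham arrays again lay below all control arrays; the closest control reading was 8.68 at 48 h. At 168 h HOXA9 read 6.26, 7.20 and 6.93 at exposed sites, 7.51 at the sham site and 9.16, 9.36 and 9.82 at control sites. At 336 h HOXA9 read 8.12, 8.21 and 8.13 at exposed sites, 7.75 at the sham site and 9.59, 9.63 and 9.61 at control sites. At 514 h HOXA9 read 8.50, 8.14 and 7.85 at exposed sites, 7.19 at the sham site and 9.87, 9.38 and 9.25 at control sites. Exposed sites were below the sham site at 168 h and above it at 336 and 514 h.

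**Figure D2:**
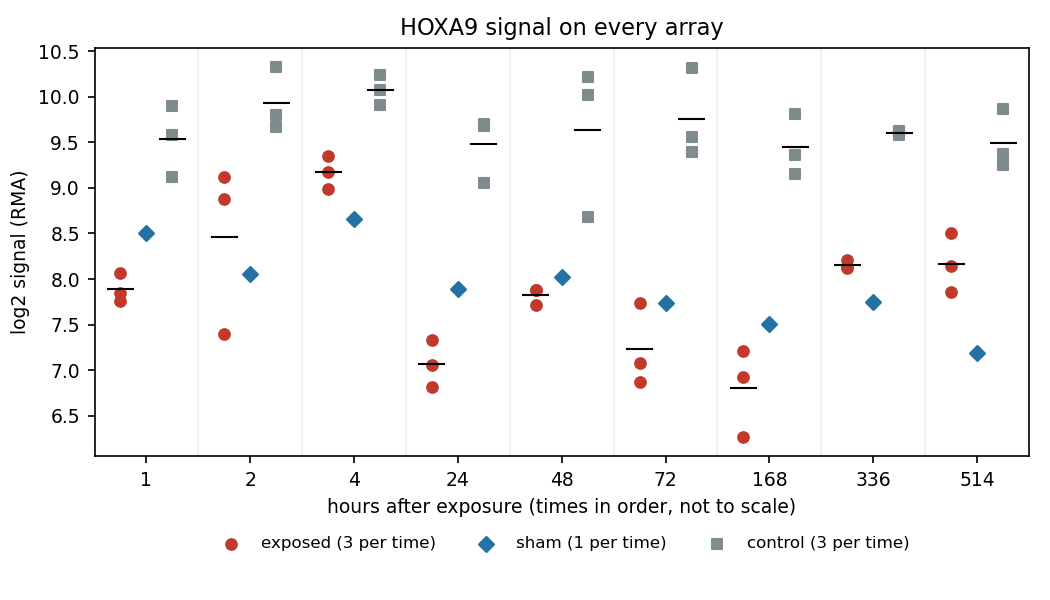
HOXA9 log2 signal (vertical axis) on each of the 63 arrays at the 9 times (horizontal axis, in order and not to scale), with exposed, sham and control sites side by side; bars are means of 3 arrays. At 9 of 9 times the exposed and sham readings lie below all control readings of that time.

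HOXA9 readings of exposed and control sites did not overlap at 9 of 9 times, and the sham array lay below the controls at 9 of 9 times. Of the 23999 probe sets, 0.0167% had all exposed arrays below control arrays at every time, 0.0167% had the sham array below them at every time, and 0.00417%, which is the HOXA9 probe set alone, had both. All 9 sham arrays, at 8.66 or less, lay below all 27 control arrays, at 8.68 or more, whatever their time, which held for no other probe set (0.00417%). Exposed minus control was -1.34 ± 0.19 at 1 to 4 h, -2.25 ± 0.19 at 24 to 72 h and -1.81 ± 0.19 at 168 to 514 h. This difference changed by -0.91 ± 0.27 between the first and second window (adjusted p = 0.0143, limma). Sham minus control was -1.44 ± 0.27, -1.74 ± 0.27 and -2.04 ± 0.27 in the same windows (adjusted p = 0.0316, 0.00268 and 8.45e-05). In the windows of 24 to 72 h and 168 to 514 h it was the only probe set of 23999 called between sham and control sites, and at 1 to 4 h it was 1 of 3 called (0.0125%, against 0.00417% in each later window), the other 2 not being members. Between exposed and sham sites the difference was 0.10 ± 0.27, -0.51 ± 0.27 and 0.22 ± 0.27, none of them past the threshold (lowest adjusted p = 0.168, at 24 to 72 h). In all 27 pairs of equal replicate number the exposed array was lower, with differences of -2.90 to -0.68. Control readings of HOXA9 did not differ among the 9 times past the threshold (adjusted p = 0.576, moderated F test).

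Across the 63 arrays, with each time's mean removed, HOXA9 had a Pearson r of 0.49 with the muscle score, of 0.54 with the keratinocyte score and of -0.63 with the neutrophil and macrophage score. Among the 27 control arrays alone r was 0.51, -0.54 and -0.49, and the sign with keratinocytes was not the same. Removal of time means is given for the 63 arrays only. Here and below, r over the 63 arrays and r in the controls may thus not be like measures. The points share arrays and pigs. The muscle score averaged 10.18 ± 2.67 in exposed, 9.51 ± 2.34 in sham and 11.33 ± 2.41 in control arrays (SD), and 11 of the 12 muscle genes differed between sham and control sites at an unadjusted p below 0.05, 0 after adjustment in limma. With the score as a covariate, HOXA9 differed by -1.70 between exposed and control sites and by -1.58 between sham and control sites, both called. At 1 to 4 h the muscle score was 11.89 ± 2.69 in exposed, 12.23 ± 0.79 in sham and 11.41 ± 2.49 in control arrays. At 24 to 72 h it was 10.37 ± 2.19 in exposed, 9.16 ± 1.17 in sham and 12.25 ± 1.11 in control arrays. The values at 168 to 514 h were 8.29 ± 1.96, 7.13 ± 0.11 and 10.34 ± 3.07 in the same order. The part of muscle or of the other cell types in the HOXA9 result was not tested.

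**Figure D3:**
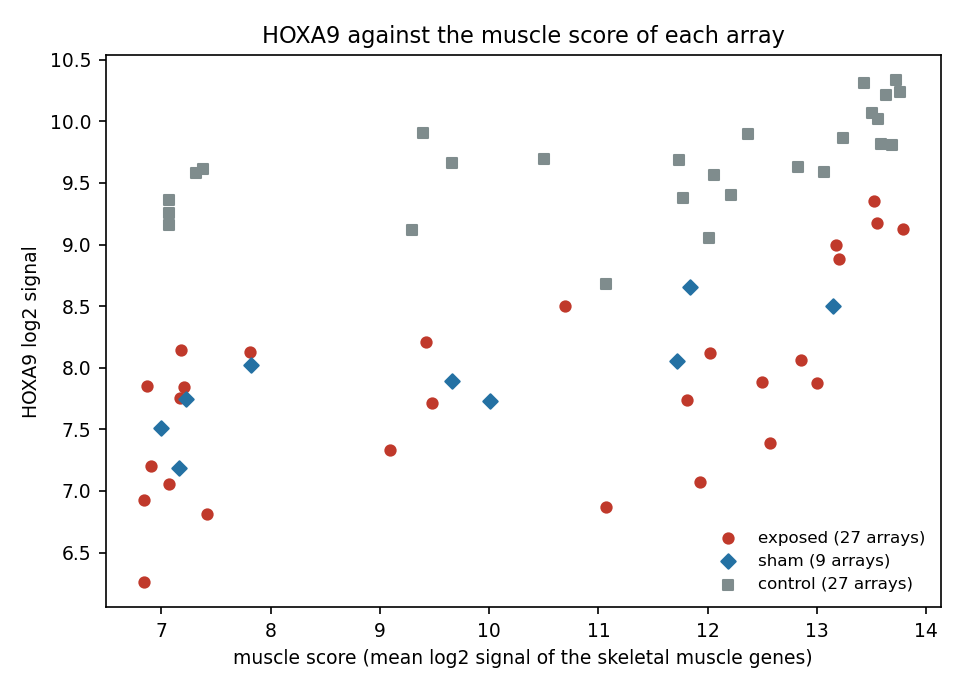
HOXA9 log2 signal (vertical axis) against the muscle score, the mean log2 signal of 12 skeletal muscle genes (horizontal axis), for 27 exposed, 9 sham and 27 control arrays. Scores run from 6.84 to 13.79 in exposed, from 7.00 to 13.14 in sham and from 7.07 to 13.76 in control arrays, and the sham readings of HOXA9, at 8.66 or less, lie below the control readings, at 8.68 or more.

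Of the 79 genes in 11 lists of cell markers, 0 were called between sham and control sites in limma, against 0.0208% of all probe sets. At an unadjusted p below 0.05 there were 20, of which 11 were skeletal muscle genes. The keratinocyte score was 12.05 ± 0.30 in sham and 11.92 ± 0.39 in control arrays, and the fibroblast score 11.74 ± 0.21 and 11.60 ± 0.24 (SD, n = 9 and 27). Between exposed and control sites at 1 to 4 h, where HOXA9 differed by -1.34, 5 of the 79 marker genes had an unadjusted p below 0.05. In limma 0 of them were called, against 5.48% of all probe sets. Within the 3 processing periods, set by scan date and each holding 3 times, HOXA9 differed by -2.24, -1.58 and -1.59 between exposed and control sites. Between sham and control sites it differed by -1.52, -1.79 and -1.92. Exposed minus sham was -0.72, 0.21 and 0.33 in these periods, so that its sign was not the same in all of them, and no period's value passed the threshold (lowest adjusted p = 0.0613). The other 4 probe sets called between sham and control sites were those of NME6 (-0.27 ± 0.05) and SPATA4 (-0.20 ± 0.04) and 2 unnamed ones at -1.61 and -0.71. Neither NME6 (adjusted p = 0.976) nor SPATA4 (0.82) was called between exposed and control sites. The unnamed probe sets were lower at exposed sites as well (-1.22 and -0.54).

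HOXA3, an anterior gene of the same cluster known for its part in forming pharyngeal organs, was lower at exposed sites on average (-0.44 ± 0.05 over the 9 times, adjusted p = 2.97e-09, limma). At 1 h HOXA3 read 8.45, 8.75 and 8.65 at exposed sites, 8.70 at the sham site and 8.76, 8.88 and 9.13 at control sites. At 2 h HOXA3 read 8.49, 8.36 and 8.41 at exposed sites, 8.32 at the sham site and 8.66, 8.65 and 8.72 at control sites. At 4 h HOXA3 read 8.30, 8.40 and 8.72 at exposed sites, 8.56 at the sham site and 8.44, 8.71 and 8.84 at control sites. Exposed and control readings were apart at 1 and 2 h and overlapped at 4 h. At 24 h HOXA3 read 7.87, 8.02 and 7.56 at exposed sites, 8.50 at the sham site and 8.53, 8.69 and 8.90 at control sites. At 48 h HOXA3 read 8.33, 8.34 and 7.99 at exposed sites, 8.81 at the sham site and 8.98, 8.81 and 8.48 at control sites. At 72 h HOXA3 read 7.81, 8.10 and 7.47 at exposed sites, 8.42 at the sham site and 8.46, 8.83 and 8.25 at control sites. The groups did not overlap at these times, and all 3 were called (adjusted p = 1.41e-05, 0.0165 and 0.00112, limma). At 168 h HOXA3 read 7.94, 8.34 and 8.44 at exposed sites, 8.58 at the sham site and 8.63, 8.54 and 8.69 at control sites. At 336 h HOXA3 read 8.31, 8.19 and 8.39 at exposed sites, 8.46 at the sham site and 8.59, 8.66 and 8.62 at control sites. At 514 h HOXA3 read 8.29, 8.34 and 8.33 at exposed sites, 8.17 at the sham site and 8.80, 8.59 and 8.68 at control sites. The exposed readings were again all below the control readings, at differences of -0.38, -0.33 and -0.37, none of which passed the threshold.

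Exposed HOXA3 readings were below all controls of their time at 8 of 9 times and lower in 27 of 27 numbered pairs, and exposed minus control was -0.25 ± 0.09, -0.71 ± 0.09 and -0.36 ± 0.09 in the 3 windows. The difference changed by -0.46 ± 0.12 between the first and second window (adjusted p = 0.00666, limma). The sham array was below all controls at 5 of 9 times and within them at 4. For counts below 9 of 9 times, and for counts of numbered pairs, no share over all probe sets is given for any gene here. Such counts therefore only describe the readings. Sham minus control was -0.18 ± 0.07 (95% interval -0.33 to -0.04), with an unadjusted p of 0.013 and an adjusted p of 0.496 in limma. Exposed minus sham was -0.26 ± 0.07 (adjusted p = 0.00509), and by window -0.02 ± 0.12, -0.63 ± 0.12 and -0.12 ± 0.12, of which the middle one was called. The sham mean of HOXA3 over all times lay between the exposed and the control mean (8.24 ± 0.31 exposed, 8.50 ± 0.19 sham and 8.69 ± 0.18 control, SD).

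In the HOXD cluster, whose posterior genes pattern limb and digits, HOXD12 had the largest difference. Averaged over the 9 times exposed minus control was -0.73 ± 0.08 and exposed minus sham -0.82 ± 0.11. At 1 h HOXD12 read 6.56, 6.60 and 6.76 at exposed sites, 6.70 at the sham site and 6.80, 6.70 and 6.63 at control sites. At 2 h HOXD12 read 6.90, 6.62 and 5.77 at exposed sites, 6.98 at the sham site and 6.75, 6.95 and 6.25 at control sites. At 4 h HOXD12 read 6.30, 6.62 and 6.64 at exposed sites, 7.63 at the sham site and 6.90, 7.74 and 7.88 at control sites. The groups overlapped at 1 and 2 h and were apart at 4 h, where exposed minus control was -0.99 (adjusted p = 0.0102, limma). At 24 h HOXD12 read 6.17, 5.95 and 5.60 at exposed sites, 6.86 at the sham site and 7.16, 7.24 and 7.63 at control sites. At 48 h HOXD12 read 6.20, 6.59 and 6.01 at exposed sites, 7.46 at the sham site and 6.84, 6.93 and 6.97 at control sites. At 72 h HOXD12 read 6.37, 6.57 and 6.01 at exposed sites, 7.15 at the sham site and 7.47, 7.13 and 7.05 at control sites. Each exposed reading was below the sham and control readings of its time. At 168 h HOXD12 read 5.90, 5.70 and 6.25 at exposed sites, 6.50 at the sham site and 6.67, 6.46 and 6.45 at control sites. At 336 h HOXD12 read 5.73, 5.66 and 6.31 at exposed sites, 7.34 at the sham site and 7.03, 6.92 and 7.09 at control sites. At 514 h HOXD12 read 6.48, 6.80 and 6.73 at exposed sites, 7.34 at the sham site and 7.13, 7.43 and 7.38 at control sites. This held at the late times too, so that exposed and control arrays did not overlap at 7 of 9 times.

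HOXD12 differed by -0.42 ± 0.13, -0.99 ± 0.13 and -0.78 ± 0.13 between exposed and control sites in the 3 windows, all called (adjusted p = 0.0443 in the first, limma), and by -0.57 ± 0.18 between the first and second window (adjusted p = 0.0269). The call at 1 to 4 h was lost in 12 of 63 fits that left out 1 array (adjusted p up to 0.164), while the call at 24 to 72 h was kept in all of them. The sham array was above all exposed arrays at 8 of 9 times and within them at 1 h. Sham minus control was 0.09 ± 0.11 (adjusted p = 0.857). Control readings themselves differed among times (adjusted p = 0.00142, moderated F test), with means of 6.71 at 1 h and 7.51 at 4 h, and single times and processing periods cannot be told apart. A second, dimmer HOXD12 probe set, with a mean of 5.34 near the lower end of the scale, differed by -0.01 ± 0.04 between exposed and control sites (adjusted p = 0.917, limma). At 168 to 514 h it was higher on average at exposed sites, by 0.15 ± 0.06 against control and 0.24 ± 0.09 against sham sites (unadjusted p = 0.0251 and 0.00902, adjusted p = 0.0933 and 0.0699), so the fall described was that of the brighter probe set and was not seen in the other.

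HOXD10, a limb and posterior trunk gene, fell less (-0.22 ± 0.03 over the 9 times, adjusted p = 3.56e-07, limma), but its spread was small. At 1, 2 and 4 h HOXD10 averaged 9.80, 9.53 and 9.61 at exposed sites, against sham readings of 9.76, 9.71 and 9.68 and control means of 9.80, 9.62 and 9.83. At 24, 48 and 72 h HOXD10 averaged 9.34, 9.50 and 9.20 at exposed sites, against sham readings of 9.73, 9.70 and 9.62 and control means of 9.90, 9.72 and 9.54. At 168, 336 and 514 h HOXD10 averaged 9.43, 9.42 and 9.51 at exposed sites, against sham readings of 9.60, 9.77 and 9.73 and control means of 9.68, 9.61 and 9.60. The exposed readings were all below the controls at 6 of 9 times, from 4 to 336 h. At 24 h they were 9.30, 9.29 and 9.44, against 9.69, 9.89 and 10.12 at control sites, and this time and 72 h were called. Sham readings stayed between 9.60 and 9.77 at all times (9.70 ± 0.06, SD, n = 9), above all exposed arrays at 7 of 9 times. Sham minus control was -0.00081 ± 0.04 and exposed minus sham -0.22 ± 0.04 (adjusted p = 0.000196). The call of exposed minus sham at 168 to 514 h was lost in 5 of 63 fits that left out 1 array, namely the sham array of 168, 336 or 514 h, replicate 2 of the exposed arrays at 336 h or replicate 3 at 514 h (differences of -0.29 to -0.20). Without a sham array, its time leaves this contrast.

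HOXD8 lies towards the middle of the HOXD cluster. At 1, 2 and 4 h HOXD8 averaged 9.07, 9.49 and 9.20 at exposed sites, against sham readings of 9.40, 8.93 and 8.85 and control means of 8.95, 9.35 and 9.26. At 24, 48 and 72 h HOXD8 averaged 8.77, 9.17 and 8.48 at exposed sites, against sham readings of 9.11, 8.89 and 8.70 and control means of 9.18, 9.57 and 8.93. At 168, 336 and 514 h HOXD8 averaged 8.30, 8.57 and 8.48 at exposed sites, against sham readings of 8.83, 9.07 and 8.62 and control means of 8.64, 9.20 and 8.98. Exposed and control arrays overlapped at 6 of 9 times, among them all times up to 4 h, and were apart at 24, 336 and 514 h. No single time was called in the main fit. With array weights (-0.52, adjusted p = 0.0153, limma) and with the replicate block (-0.63, 0.0316) 336 h was called. With the contrast's own arrays alone 24 h (-0.42, adjusted p = 0.0155, limma) and 514 h (-0.50, 0.0414) were. The 3 windows gave 0.06 ± 0.12, -0.42 ± 0.12 and -0.49 ± 0.12 for exposed minus control, the later 2 called in limma. The sham readings were below the controls at 3 times, above at 2 and within at 4, and neither sham minus control (-0.18 ± 0.10, adjusted p = 0.589) nor exposed minus sham (-0.10 ± 0.10, 95% interval -0.30 to 0.10) passed the threshold. Its r with the muscle score was 0.58 over the 63 arrays, time means removed, the highest of the 9 genes there, and 0.52 in the 27 controls, where that of HOXB7 was 0.68. With the keratinocyte score it was 0.22 and -0.83; the part of either cell type in the HOXD8 result was not tested. With the muscle score as a covariate the change between the first and second window was -0.33 (adjusted p = 0.146, limma), against -0.48 (0.0462) without it. In that setting exposed minus sham at 168 to 514 h, not called in the main fit, was called (-0.47, adjusted p = 0.0374).

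HOXB7, a gene of the HOXB cluster known from melanoma, fell at exposed sites (-0.29 ± 0.04 over the 9 times, adjusted p = 9.84e-07, limma). At 1, 2 and 4 h HOXB7 averaged 8.83, 8.85 and 8.95 at exposed sites, against sham readings of 8.68, 9.04 and 9.36 and control means of 8.69, 8.99 and 9.36. At 24, 48 and 72 h HOXB7 averaged 8.51, 8.94 and 8.93 at exposed sites, against sham readings of 8.80, 9.01 and 9.43 and control means of 8.99, 9.07 and 9.25. At 168, 336 and 514 h HOXB7 averaged 8.18, 8.71 and 9.00 at exposed sites, against sham readings of 8.67, 9.13 and 9.40 and control means of 8.69, 8.97 and 9.45. Exposed readings were below all controls at 4, 24, 72, 168, 336 and 514 h. At 168 h they were 8.20, 7.97 and 8.36, against 8.67 at the sham site and 8.77, 8.46 and 8.83 at control sites. Sham minus control was 0.0036 ± 0.06, and exposed minus sham -0.29 ± 0.06 (adjusted p = 0.000315, limma). The windows gave -0.14 ± 0.07, -0.31 ± 0.07 and -0.41 ± 0.07 for exposed minus control, the later 2 called. A second, dimmer HOXB7 probe set fell as well (-0.15 ± 0.04, adjusted p = 0.00418), but with it 4 calls were lost, namely exposed minus sham at 24 to 72 h (-0.19 ± 0.11, adjusted p = 0.191) and at 168 to 514 h (-0.15 ± 0.11, 0.418) and exposed minus control at 168 h (-0.17 ± 0.13, 0.403) and at 514 h (-0.30 ± 0.13, 0.182). Controls themselves differed among times, with the lowest adjusted p of the 9 genes (1.09e-05, moderated F test), and among the 27 controls its r with the muscle score was 0.68.

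**Figure D4:**
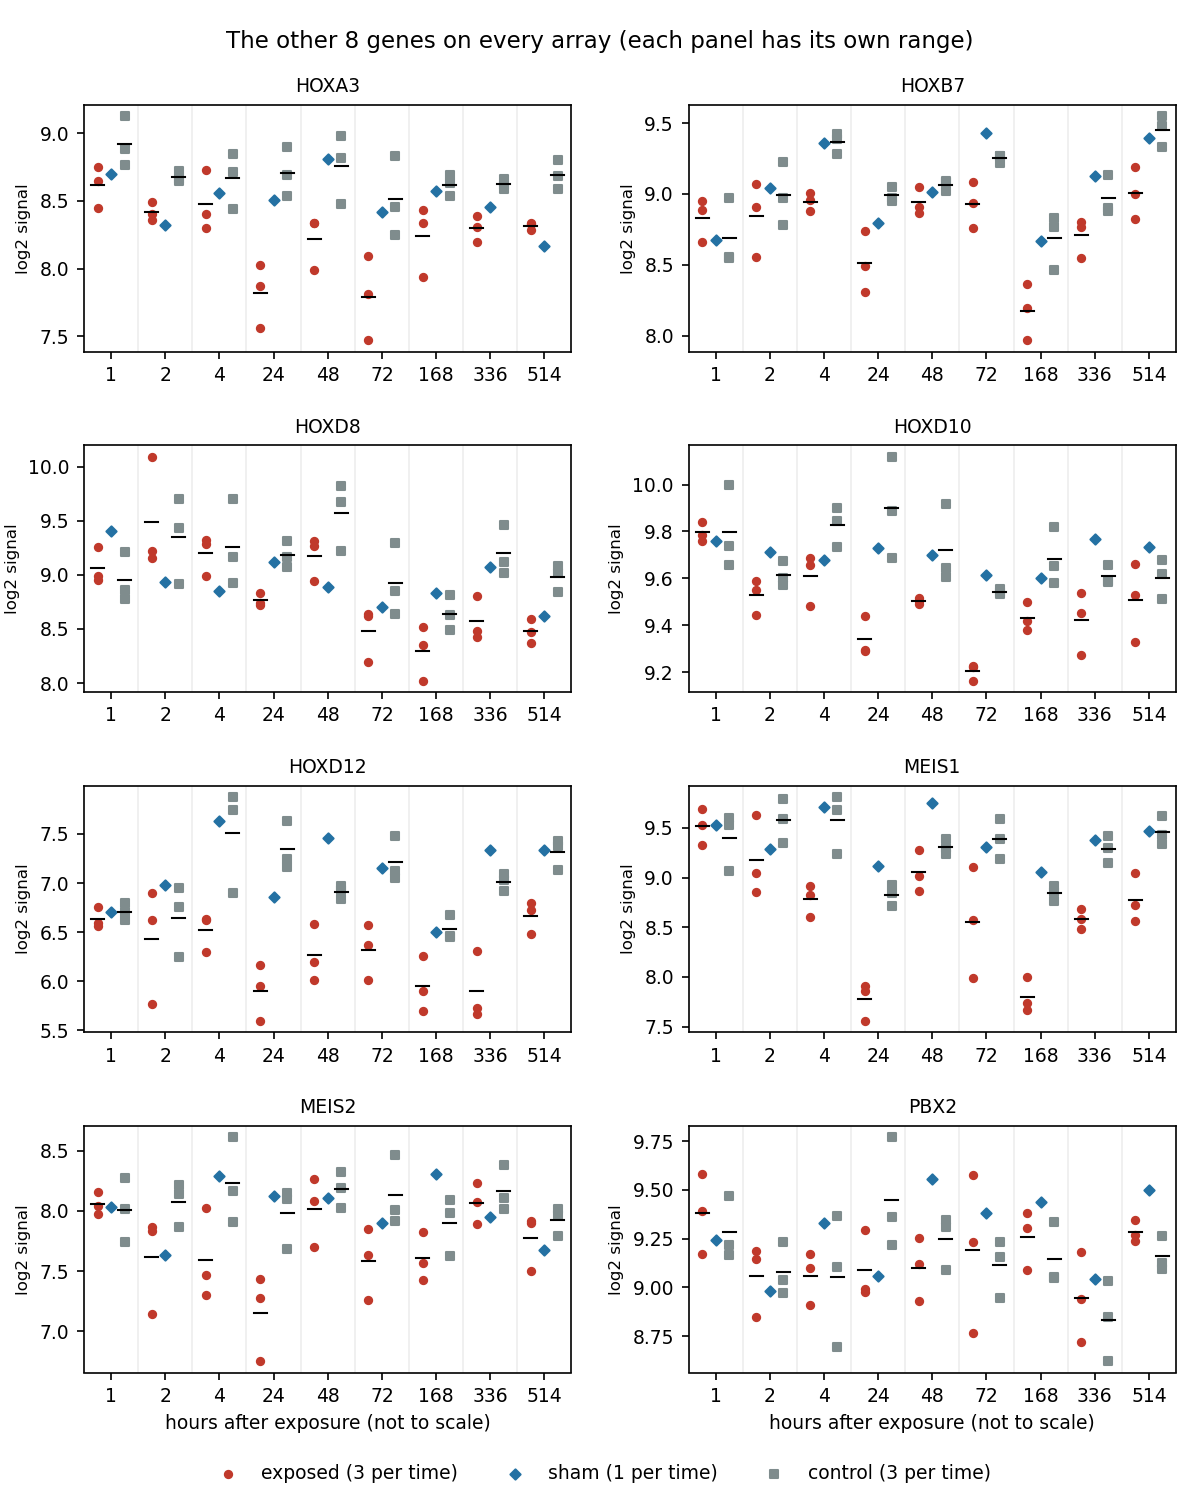
Log2 signal (vertical axes, each with its own range) of the 8 genes other than HOXA9 on each of the 63 arrays at the 9 times (horizontal axes, in order and not to scale), with exposed, sham and control sites side by side and bars at the means of 3 arrays. In the MEIS1 and HOXD12 panels the sham readings lie above all exposed readings of their time from 4 h on.

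Among the cofactors, MEIS1, which binds DNA with PBX and posterior HOX proteins, was lower at exposed sites. Exposed minus control was -0.63 ± 0.06 and exposed minus sham -0.73 ± 0.09 over the 9 times. At 1 h MEIS1 read 9.69, 9.32 and 9.53 at exposed sites, 9.53 at the sham site and 9.53, 9.07 and 9.60 at control sites. At 2 h MEIS1 read 9.63, 9.04 and 8.85 at exposed sites, 9.28 at the sham site and 9.58, 9.79 and 9.35 at control sites. At 4 h MEIS1 read 8.61, 8.92 and 8.82 at exposed sites, 9.71 at the sham site and 9.24, 9.81 and 9.68 at control sites. At 1 and 2 h exposed and control readings overlapped, and at 4 h all exposed readings were below the sham and control readings (adjusted p = 0.0168, limma). At 24 h MEIS1 read 7.86, 7.56 and 7.91 at exposed sites, 9.11 at the sham site and 8.71, 8.84 and 8.92 at control sites. At 48 h MEIS1 read 9.01, 9.28 and 8.87 at exposed sites, 9.75 at the sham site and 9.38, 9.30 and 9.23 at control sites. At 72 h MEIS1 read 8.58, 9.10 and 7.99 at exposed sites, 9.31 at the sham site and 9.19, 9.59 and 9.38 at control sites. Exposed and control readings did not overlap at 24 and 72 h, but at 48 h they did, and there the difference was -0.25. At 168 h MEIS1 read 7.66, 7.74 and 8.00 at exposed sites, 9.05 at the sham site and 8.77, 8.85 and 8.92 at control sites. At 336 h MEIS1 read 8.48, 8.69 and 8.58 at exposed sites, 9.38 at the sham site and 9.42, 9.15 and 9.30 at control sites. At 514 h MEIS1 read 8.56, 8.72 and 9.05 at exposed sites, 9.47 at the sham site and 9.42, 9.34 and 9.62 at control sites. At all 3 late times the exposed readings were below the sham and control readings, and each of these times was called.

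MEIS1 differed by -0.36 ± 0.11, -0.71 ± 0.11 and -0.81 ± 0.11 between exposed and control sites in the 3 windows, and by -0.35 ± 0.16, -0.93 ± 0.16 and -0.91 ± 0.16 between exposed and sham sites, of which the last 2 were called. Its call at 1 to 4 h was lost in 15 of 63 fits that left out 1 array (adjusted p up to 0.134, limma). The difference varied among the 9 times (adjusted p = 0.0125, moderated F test). Sham minus control was 0.10 ± 0.09 (95% interval -0.08 to 0.28), and the sham array was above all exposed arrays at 7 of 9 times. The second MEIS1 probe set fell as well (-0.36 ± 0.06, adjusted p = 3.91e-06). MEIS1 moved with the neutrophil and macrophage score (r = -0.81 over the 63 arrays, time means removed, and -0.37 in the 27 controls), with the fibroblast score (r = 0.76 and 0.38) and, over the 63 arrays, with the keratinocyte score (r = 0.65, against 0.012 in the controls). At 24 to 72 h the neutrophil and macrophage score was 9.26 to 10.62 in exposed, 7.45 to 7.99 in sham and 7.50 to 8.95 in control arrays; the part of these cell types in the MEIS1 result was not tested. The r with the same score was -0.75 for HOXA3, -0.72 for HOXD12, -0.68 for HOXD10, -0.65 for HOXB7, -0.63 for HOXA9, -0.52 for HOXD8, -0.47 for MEIS2 and -0.09 for PBX2. In the 27 controls alone it was nearer 0 for these genes, at -0.23 for HOXA3, 0.21 for HOXD12, 0.033 for HOXD10, -0.11 for HOXB7, -0.49 for HOXA9, -0.28 for HOXD8, -0.047 for MEIS2 and -0.051 for PBX2. With the keratinocyte score r was 0.62 for HOXA3, 0.63 for HOXD12, 0.60 for HOXD10 and 0.52 for HOXB7 over the 63 arrays, against -0.29, 0.59, -0.18 and -0.60 in the controls. With the fibroblast score it was 0.70 for HOXD12, against 0.35 in the controls. The part of these cells in those results was not tested.

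MEIS2, a close relative of MEIS1, fell on average (-0.35 ± 0.07, adjusted p = 9.36e-05, limma). At 1, 2 and 4 h MEIS2 averaged 8.06, 7.61 and 7.59 at exposed sites, against sham readings of 8.03, 7.64 and 8.29 and control means of 8.01, 8.07 and 8.23. At 24, 48 and 72 h MEIS2 averaged 7.15, 8.01 and 7.58 at exposed sites, against sham readings of 8.12, 8.11 and 7.90 and control means of 7.98, 8.18 and 8.13. At 168, 336 and 514 h MEIS2 averaged 7.61, 8.07 and 7.77 at exposed sites, against sham readings of 8.30, 7.95 and 7.67 and control means of 7.90, 8.17 and 7.92. Only 2, 24 and 72 h had no overlap between exposed and control arrays, and 24 h was the single time called (6.75, 7.44 and 7.27 at exposed sites, 8.12 at the sham site and 7.68, 8.10 and 8.15 at control sites). The windows gave -0.35 ± 0.12, -0.51 ± 0.12 and -0.18 ± 0.12, with the middle one called, and the late window differed least (adjusted p = 0.31, limma). Exposed minus sham was -0.28 ± 0.10 (adjusted p = 0.0274, limma). This call was lost without the sham array of 4, 24 or 168 h, and so without that time in the contrast (-0.23 to -0.20, adjusted p = 0.0972 to 0.184). In the processing period of 2, 48 and 336 h the difference was 0.0012. The second MEIS2 probe set fell as well (-0.19 ± 0.04 for exposed minus control, adjusted p = 0.000388).

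PBX2, a partner of both HOX and MEIS proteins, had exposed and control readings that overlapped at 9 of 9 times. At 1, 2 and 4 h PBX2 averaged 9.38, 9.06 and 9.06 at exposed sites, against sham readings of 9.24, 8.98 and 9.33 and control means of 9.28, 9.08 and 9.06. At 24, 48 and 72 h PBX2 averaged 9.09, 9.10 and 9.19 at exposed sites, against sham readings of 9.06, 9.56 and 9.38 and control means of 9.45, 9.25 and 9.11. At 168, 336 and 514 h PBX2 averaged 9.26, 8.95 and 9.28 at exposed sites, against sham readings of 9.44, 9.04 and 9.50 and control means of 9.15, 8.83 and 9.16. The exposed array was the lower one in 10 of 27 numbered pairs, and the difference farthest from 0, -0.36 at 24 h, did not pass the threshold (adjusted p = 0.102, limma). Without control replicate 2 at 24 h that difference was -0.48 and was called (adjusted p = 0.0485). The sham reading was above all controls at 5 times, within them at 3 and below at 1. Sham minus control (0.13 ± 0.08, 95% interval -0.03 to 0.28) and exposed minus sham (-0.13 ± 0.08) were not called, though with array weights exposed minus sham at 24 to 72 h was (-0.28, adjusted p = 0.0451), and the second PBX2 probe set gave 0.06 ± 0.05 for exposed minus control.

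The difference between exposed and control sites was more negative at 24 to 72 h than at 1 to 4 h for all 9 genes, and this change passed the threshold for 5 of them. At 1 to 4 h, 3 of the 9 genes were called, all lower (HOXA9, HOXD12 and MEIS1), against 5.48% of all probe sets called and 3.41% called lower. At 24 to 72 h, 8 of 9 were lower (35.1% and 16.9% of all probe sets), and at 168 to 514 h 7 of 9 (21.9% and 9.88%), MEIS2 and PBX2 being the exceptions. The median difference of the 9 genes was -0.25, -0.51 and -0.41 in these windows, against -0.0054, -0.0031 and -4.3e-05 over all probe sets. The 5 genes whose difference changed between the first and second window were HOXA3, HOXA9, HOXD8, HOXD10 and HOXD12, where 16.5% of all probe sets were called and 6.43% lower. Between the middle and the late window, 0 of 9 were called in limma (2 at an unadjusted p below 0.05, HOXA3 and HOXD10, both upwards), where 8.45% of all were. HOXA3 was called there with sacrifice day as a block (0.35, adjusted p = 0.0165) and in 5 of 63 fits that left out 1 array (0.39 to 0.41), and HOXD10 without control replicate 1 at 24 h (0.23, adjusted p = 0.0474). Any difference among the 9 times was called for HOXA9, HOXD12 and MEIS1 (18.7% of all probe sets by the same moderated F test).

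At single times, 27 of 81 gene and time combinations were called, all lower, against 8.62% over all probe sets. By time these were 1 at 1 h (0.788% of all probe sets were called lower at that time) and 1 at 2 h (0.0542%), both HOXA9, then 2 at 4 h (0.342%), HOXD12 and MEIS1. At 24 h 7 of 9 were called (12.7%), all but HOXD8 and PBX2. At 48 h there were 2 (4.11%), HOXA3 and HOXA9, and at 72 h 5 (4.25%), HOXA3, HOXA9, HOXD10, HOXD12 and MEIS1. The late times had 3 each, HOXA9, HOXB7 and MEIS1 at 168 h (8.06%) and at 514 h (2.13%), and HOXA9, HOXD12 and MEIS1 at 336 h (1.66%). HOXA9 at 4 h, where exposed minus control was -0.90, is the one time at which it was not called. Of the 27 calls, 17 were kept in all 63 fits that left out 1 array; the others were HOXA9 at 2 and 514 h, HOXA3 at 48 h, HOXB7 at 514 h, HOXD12 at 4 and 72 h, and MEIS1 at 4, 72, 336 and 514 h.

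**Figure D5:**
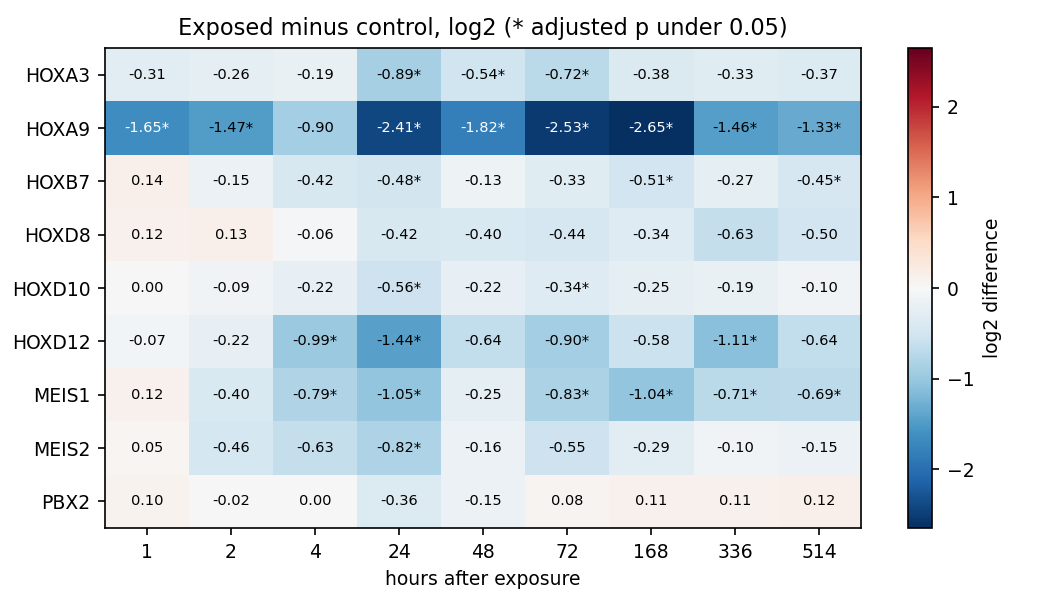
Exposed minus control difference in log2 (colour and printed number) of each gene (rows) at each time (columns), with an asterisk where the adjusted p was below 0.05. HOXA9 is blue, meaning lower at exposed sites, at every time and reaches -2.65 at 168 h, and PBX2 stays between -0.36 and 0.12.

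Against sham sites by window, 0 of 9 genes were called at 1 to 4 h in limma, where 1.48% of all probe sets were; HOXD12 (-0.58 ± 0.18) and MEIS1 (-0.35 ± 0.16) had an unadjusted p below 0.05. At 24 to 72 h 6 fell (HOXA3, HOXB7, HOXD10, HOXD12, MEIS1 and MEIS2, against 27.8% of all probe sets called and 14.1% called lower), and at 168 to 514 h 4 fell (HOXB7, HOXD10, HOXD12 and MEIS1, against 11% and 4.83%). The largest of these were HOXD12 at 24 to 72 h (-0.99 ± 0.18) and MEIS1 in both later windows (-0.93 ± 0.16 and -0.91 ± 0.16). Each window holds 3 sham arrays from 3 pigs, which the fit takes to vary like the other groups. Leaving out 1 array ended the calls of HOXB7 (7 of 63 fits, differences of -0.29 to -0.18) and MEIS2 (5 of 63, -0.53 to -0.21) at 24 to 72 h. At 168 to 514 h the calls of HOXB7 and HOXD12 each were lost without 1 sham array, that of 168 h for HOXB7 (-0.41 without it) and that of 336 h for HOXD12 (-0.61 without it). Without the sham array of a time, that time leaves the contrast, so such fits average the other times only.

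Control sites alone differed among the 9 times for HOXB7, HOXD8, HOXD10, HOXD12 and MEIS1, 5 of 9 genes by the moderated F test, where 63.4% of all probe sets were called. HOXA3, HOXA9, MEIS2 and PBX2 did not pass it. HOXB7 control means were 8.69, 8.99 and 8.69 in the period of 1, 24 and 168 h, against 9.36, 9.25 and 9.45 in that of 4, 72 and 514 h. By the scan dates in the labels, arrays fall into 3 periods, called processing periods here, and each time lies within 1 of them. Time and period thus cannot be told apart for single times, while each window holds 1 time of every period.

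Among themselves, the genes other than PBX2 had positive correlations with each other over the 63 arrays after each time's mean was removed. The closest pair was HOXD12 and MEIS1 (Pearson r = 0.84), followed by HOXA3 and HOXA9 (0.78) and HOXB7 and MEIS1 (0.76), while HOXD8 and MEIS2 were the loosest (0.19). PBX2 had r between -0.15 and 0.29 with the others. These values share arrays and the exposed to control difference, so they describe these arrays only. Of all named genes, those most like HOXA9 were MAP3K4 (0.81), LOC100511862 (0.80) and HOXA3 (0.78). Those most like MEIS1 were TGFB2 (0.88), PTH1R (0.87) and TSHZ1 (0.85), and PTH1R (0.87) also led for HOXD12, with NCAM1 (0.86) and CTNNAL1 (0.85). HOXA3 was most like DST (0.84), KLHL12 (0.83) and LOC100511862 (0.83), HOXD8 most like SGCD (0.85), PPP3CB (0.83) and FXYD7 (0.83), and HOXD10 most like GPRASP2 (0.78), MGLL (0.77) and ESYT2 (0.75). For HOXB7 they were MEIS1 (0.76), PPP2R5A (0.73) and DST (0.72), for MEIS2 INTS6L (0.75), RUNX1T1 (0.72) and MEIS1 (0.71), and for PBX2 LPAR2 (0.58), STAT6 (0.52) and VPS41 (0.52).

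Of the measured genes that act on or beside HOX genes, those called over the 9 times were 2 of 2 other TALE genes, 4 of 14 Polycomb and Trithorax genes, 3 of 9 retinoic acid genes and 4 of 9 other regional or epidermal factors, against 37% of all probe sets called and 18.4% called lower. Of 15 other TALE genes listed 2 were measured, of which PKNOX2, another PBX partner, fell at exposed against control sites (-0.62 ± 0.14) and TGIF1, a repressor of TGF-beta and retinoic acid signalling, rose (0.34 ± 0.06). Of the Polycomb and Trithorax genes, whose proteins keep HOX genes silent or active, EED, a subunit of the Polycomb complex that methylates histones, rose (0.30 ± 0.05), and KDM6A (-0.24 ± 0.06), ASXL1 (-0.17 ± 0.04) and JARID2 (-0.14 ± 0.05) fell. Of the retinoic acid genes, which act upstream of HOX genes in the embryo, ALDH1A1, which makes retinoic acid, rose (0.53 ± 0.12), as did the receptor RARA (0.12 ± 0.05), and RXRG fell (-0.20 ± 0.07). Of the transcription factor genes of other regional or epidermal programmes, GATA3 (-1.41 ± 0.08), HOPX (-1.16 ± 0.08) and MEOX2 (-0.22 ± 0.04) fell and TWIST2 rose (0.18 ± 0.07). Medians of these lists lay between -0.14 and -0.03. Between sham and control sites 0 genes of these 4 lists were called in limma, and 0 of the TALE genes and 1 each of the others had an unadjusted p below 0.05. Outside the lists, the largest differences between exposed and sham sites were the falls of SULT1E1 (-2.47), SERPINB7 (-1.91), CALML5 (-1.78), STMN2 (-1.70) and CCL28 (-1.69), and the rises of CXCL8 (4.08), ARG1 (3.59), CXCL2 (3.17), S100A9 (2.57) and CCL2 (2.37).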

How the data were processed

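Biopsy RNA was hybridised to 63 Affymetrix GeneChip Porcine Genome arrays, with 1 biopsy on each. The authors made log2 values with RMA and deposited those; RMA and Partek are named, without versions, per the submitters' processing notes. Values lay between 4.05 and 14.53. RMA compresses differences of dim probe sets. The file has 24123 probe sets, of which 124 are array controls and 23999 were tested; 10069 of them had a single gene symbol in the supplied platform annotation. The number of arrays limits the precision.

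A single fit in limma 3.58.1 (R 4.3.3, jsonlite 2.0.0, data.table of version 1.17.8) gave each of the 27 groups, taken from the labels, its own mean, on 36 residual and 3.24 prior degrees of freedom. A lone sham array is taken to vary like the other groups. Where it is left out, its time drops out of the contrasts with sham sites. Contrasts were exposed minus control, sham minus control and exposed minus sham, by window of 3 times and averaged over the 9 times, besides a moderated F test among times. Tests were two-sided, and Benjamini-Hochberg adjustment covered the 23999 probe sets, with calls at 0.05. "Called", "rose" and "fell" mean past that threshold. The fit was tested on simulated data.

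The members and lists were chosen with earlier results of these data known. All members are named, with the 3 named genes most like each over the 63 arrays after the mean of the 7 arrays of a time was subtracted. List genes past the threshold are named, up to 3 per list and contrast or more where a count needs it, as are the 5 largest differences in each direction for the contrasts with sham sites. Alternatives were another normalization, other choices of probe set, a filter on dim probe sets, trended and robust variance, the replicate number, muscle score or processing days as terms, array weights, the contrast's own arrays alone, each array left out in turn, and each processing period alone.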

Additional observations from a re-analysis of the deposited data

Results flagged for a closer look

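The difference between exposed and control sites was not the same at 24 to 72 h as at 1 to 4 h for 5 of the 9 genes, by a test of the change itself in limma. The change was -0.91 for HOXA9 (adjusted p = 0.0143), -0.57 for HOXD12 (0.0269), -0.48 for HOXD8 (0.0462), -0.46 for HOXA3 (0.00666) and -0.27 for HOXD10 (0.0108). At 1 to 4 h HOXD8 averaged 9.25 at exposed and 9.19 at control sites, so its exposed mean was below the control mean only in the later window. For each of the 5 genes the difference was more negative in the later window. Of all probe sets 6.43% changed in this direction. Among fits that left out 1 array, the call of HOXD8 was lost in 23 of 63 and that of HOXD12 in 6 of 63. The HOXD8 call was also lost in limma with amplification day (adjusted p = 0.0774), extraction day (0.0707), array weights (0.0595) or the muscle score (0.146). That of HOXD12 was lost with the mean of its probe sets (-0.26, adjusted p = 0.0916, limma).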

How the results depend on the processing

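The 8 falls at exposed against control sites over the 9 times and at 24 to 72 h, the 7 at 168 to 514 h and the single sham call, HOXA9, were kept in all 63 fits that left out 1 array and under the 12 other settings, except that the contrasts with sham sites, whose times have 1 array each, were not run with the replicate block. Within single processing periods of 3 times, the HOXD8 fall was not called in any (-0.22, -0.30 and -0.34, adjusted p = 0.205, 0.107 and 0.0616, limma). In the period of 2, 48 and 336 h the falls of HOXB7 (-0.18, adjusted p = 0.119) and MEIS2 (-0.24, 0.213) were not called either. Of 81 values within periods, those against sham sites included, 12 lost the call and 1 reversed. For HOXA9, sham minus control ran from -1.76 to -1.58 over the other settings and from -1.83 to -1.67 with 1 array left out. At 1 to 4 h the 3 genes called for exposed minus control became 5 with a replicate block, 1 with amplification day as a block and 1 with the contrast's arrays alone, and 1 to 5 with 1 array left out. It was 1 without control replicate 1 or exposed replicate 2 or 3 at 1 h, control replicate 1 or 2 or exposed replicate 3 at 2 h, or exposed replicate 1 or control replicate 2 or 3 at 4 h, and 5 without control replicate 1 at 4 h. Differences among the 9 times, called for 3 genes, were called for 5 after another quantile normalization, 7 with a replicate block, 6 with sacrifice day, 1 with extraction day and 5 with array weights, and for 1 to 5 with 1 array left out (1 without control replicate 3 at 24 h, 5 without control replicate 3 at 1 h). The 5 changes between windows were 8 with a replicate block and 3 to 7 with 1 array left out (3 without exposed or control replicate 3 at 24 h, control replicate 3 at 2 h or exposed replicate 3 at 72 h). For exposed minus sham, the 0 calls at 1 to 4 h were 1 with sacrifice day and 0 to 1 with 1 array left out, the 6 at 24 to 72 h were 3 with extraction day, and the 4 at 168 to 514 h were 2 to 4 (2 without the sham array of 168 or 336 h). MEIS2 reversed in exposed minus sham within the processing period of 2, 48 and 336 h, at 0.0012 (adjusted p = 0.999). The cause of these changes was not tested. Of 27 pairs of exposed and control arrays with equal replicate number, 21 deviated together at r above 0.1 (mean r = 0.27). All 3 pairs did so at 5 of 9 times. Without values for unequal numbers beside them, these do not settle whether equal numbers mark the same pig. The main fit does not pair the arrays. With the replicate block the 27 calls at single times were 39, among them PBX2 at 24 h (-0.36, adjusted p = 0.0214), and the change between the middle and the late window was called for HOXA3 (0.35, 0.0102) and MEIS2 (0.33, 0.0428). Of 2115 single values of the genes under 12 other settings, 2026 stayed on the same side of the threshold, 41 lost the call and 48 gained it. The sign changed in 37 of the 2115, and 0 of these were called in the main fit or under the other setting. Signals near the lower end of the scale limit what can be said of HOXD12, whose second probe set averaged 5.34.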
